A study of Mus musculus with 33 samples.

Results

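Lhx2, Emx1, Emx2, Dbx2, Zbtb20 and Pax6, 6 transcription factors that pattern the forebrain, were followed across the cell classes of the mouse hippocampal neurogenic niche. They were chosen by gene symbol and are 6 of the 18853 gene rows of the count tables. The question was whether glia and neurons of the dentate gyrus share regional factors.

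Patterning factors divide the embryonic neural tube into territories, and the hippocampus forms at the medial edge of the dorsal territory of the forebrain, the pallium. Lhx2 is a LIM-homeodomain factor that keeps early cortical cells from becoming hem, the signalling centre beside the hippocampal field. Emx1 and Emx2 are paired paralogs of the dorsal pallium, and loss of Emx2 in mice leaves the dentate gyrus underdeveloped. Pax6 is a paired-domain and homeodomain factor of radial glia and of early neuronal progenitors, Dbx2 is a homeodomain factor first described in the developing spinal cord, and Zbtb20 is a zinc-finger repressor needed for hippocampal field CA1 identity.

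The libraries are SORT-seq, a plate-based single-cell method that reads the 3′ ends of polyadenylated RNA in single barcoded cells and counts original molecules by unique molecular identifiers (UMIs), and all came from C57BL/6 mice labelled wild-type. The old group is 1 library from mice older than 12 months. The Nestin-GFP group is 1 library of GFP-positive hippocampal cells from reporter mice in which the Nestin promoter, active in stem cells, drives GFP. The niche group is 31 libraries in 5 numbered experiments, the ages of whose mice are not given, nor are those of the Nestin-GFP mice. In the niche, hippocampal tissue was depleted of neurons and live cells without surface signal for GluR1 and Cd24 were sorted. Cd24 marks immature neurons, so this gate can set how many neuroblast-like cells were caught. The labels do not say how many mice an experiment holds. P-values therefore set a difference between classes against its variation from experiment to experiment, and that variation may be technical.

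Cells with at least 1000 transcripts numbered 138 in the old library, 315 in the Nestin-GFP library and 1285 in the niche (435, 381, 155, 141 and 173 in experiments 1 to 5). Median transcripts per cell lay between 1942 in experiment 5 and 12391 in experiment 4. The same 96 well names occur in all 33 libraries because they are plate positions, and 0 pairs of cells had identical profiles. Cells were clustered on 1 of 2 random sets of their transcripts with the 6 factors left out, and clusters were named "-like" from listed markers. Neuroblast-like cells, which include immature neurons, numbered 8, 107, 2, 63 and 6 in experiments 1 to 5. Astrocyte-like cells numbered 80, 44, 51, 15 and 49, oligodendrocyte precursor-like cells 136, 88, 6, 6 and 26, and microglia-like cells 134, 52, 37, 10 and 60. Neural stem cell-like cells reached 5 cells in experiment 2 alone, with 27, and proliferating progenitor-like cells in experiments 1, 2 and 4, with 6, 12 and 19. The summed level of the astrocyte markers ran from 31390 to 48640 counts per 1e6 transcripts (CPM) in astrocyte-like cells, from 2465 to 4355 in precursor-like cells, from 1130 to 1992 in neuroblast-like cells and from 754 to 2510 in microglia-like cells. The summed level of the neuroblast markers ran from 11670 to 15500 CPM in neuroblast-like cells and from 34.8 to 2605 CPM in the other 3 classes. A cluster of 44 cells, 37 of them from experiment 3, led by Reln, Ndnf and Snhg11, stayed unnamed. Clusters of one class also split by experiment: 107 of the 171 cells of one neuroblast-like cluster came from experiment 2 and 63 of the 67 cells of the other from experiment 4. Likewise 133 of the 207 cells of one microglia-like cluster and 135 of the 188 cells of one precursor-like cluster came from experiment 1, so that classes were mostly held by different clusters in different experiments.

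The homeoboxes, the stretches that encode the DNA-binding homeodomain, show how the 5 homeodomain factors relate and how far their transcripts could be mistaken for one another. They are given 5′ to 3′ from the GENCODE transcripts of the GRCm38 genome, 180 bases each, on the coding strand. Capitals mark the 39 bases that all 5 share.
Lhx2: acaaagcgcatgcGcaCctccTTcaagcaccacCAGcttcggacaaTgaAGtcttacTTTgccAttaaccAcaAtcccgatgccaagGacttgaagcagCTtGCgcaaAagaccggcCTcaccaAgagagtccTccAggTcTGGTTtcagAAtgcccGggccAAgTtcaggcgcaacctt
Emx1: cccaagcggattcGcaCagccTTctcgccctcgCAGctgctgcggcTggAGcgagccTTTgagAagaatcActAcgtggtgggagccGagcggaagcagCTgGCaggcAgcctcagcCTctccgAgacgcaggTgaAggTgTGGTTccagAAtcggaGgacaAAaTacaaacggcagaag
Emx2: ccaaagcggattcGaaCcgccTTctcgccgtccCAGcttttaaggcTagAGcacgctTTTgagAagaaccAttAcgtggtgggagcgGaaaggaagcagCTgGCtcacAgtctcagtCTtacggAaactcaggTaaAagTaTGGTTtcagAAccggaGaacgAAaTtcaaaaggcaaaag
Dbx2: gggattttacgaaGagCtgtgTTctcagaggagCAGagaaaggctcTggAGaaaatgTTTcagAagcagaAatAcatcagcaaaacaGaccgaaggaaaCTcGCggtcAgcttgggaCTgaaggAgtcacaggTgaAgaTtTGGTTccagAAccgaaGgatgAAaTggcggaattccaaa
Pax6: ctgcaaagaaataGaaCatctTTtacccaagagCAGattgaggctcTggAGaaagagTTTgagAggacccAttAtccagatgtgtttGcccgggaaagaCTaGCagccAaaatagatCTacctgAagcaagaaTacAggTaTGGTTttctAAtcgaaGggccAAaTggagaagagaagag

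Each homeobox lies in coding exons and is split by introns. That of Lhx2 lies in exons 4 and 5 (chr2:38359966-38368883, plus strand), that of Emx1 in exons 2 and 3 (chr6:85194091-85203956, plus strand) and that of Emx2 in exons 2 and 3 (chr19:59461715-59463927, plus strand). That of Dbx2 lies in exons 3 and 4 (chr15:95624970-95632409, minus strand) and that of Pax6 in exons 8 to 10 (chr2:105691669-105692511, plus strand). Emx1 and Emx2 shared 142 of 180 bases (78.9%), while the other pairs shared between 37.8% and 54.4%. Zbtb20, a gene of chr16:42875881-43642602 on the plus strand, encodes no homeodomain. Because the assay reads 3′ ends, the last 500 bases of each transcript matter most for assigning a read. There the longest exact run that any 2 of the 6 factors had in common was 14 bases, between Dbx2 and Zbtb20, and that of Emx1 and Emx2 was 9 bases. Lhx2, Emx2, Pax6 and Zbtb20 overlap antisense genes in the annotation. Emx2 and its partner Emx2os overlap only at chr19:59458372-59458635, and Pax6 and its partner Pax6os1 only at chr2:105668900-105670330. In both pairs this is where the genes begin, away from the 3′ ends that the assay reads. Where the antisense genes of Lhx2 and Zbtb20 lie was not examined, and whether the counting used strand is not stated. Reads of Lhx2 and Zbtb20 and of their antisense partners may therefore not be told apart. The separate row for Emx2os, the antisense partner of Emx2, averaged 48.5 CPM in neuroblast-like cells, 33.8 in astrocyte-like cells, 9.09 in precursor-like cells and 9.01 in microglia-like cells.

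Among classes with sums from 3 or more experiments, Lhx2, Emx1, Emx2 and Zbtb20 had their highest mean levels in neuroblast-like cells, Dbx2 in astrocyte-like cells and Pax6 in proliferating progenitor-like and astrocyte-like cells. Levels are CPM of all transcripts of a class in an experiment, and sums over a class cannot tell fewer expressing cells from less RNA per cell.

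**Figure D1:**
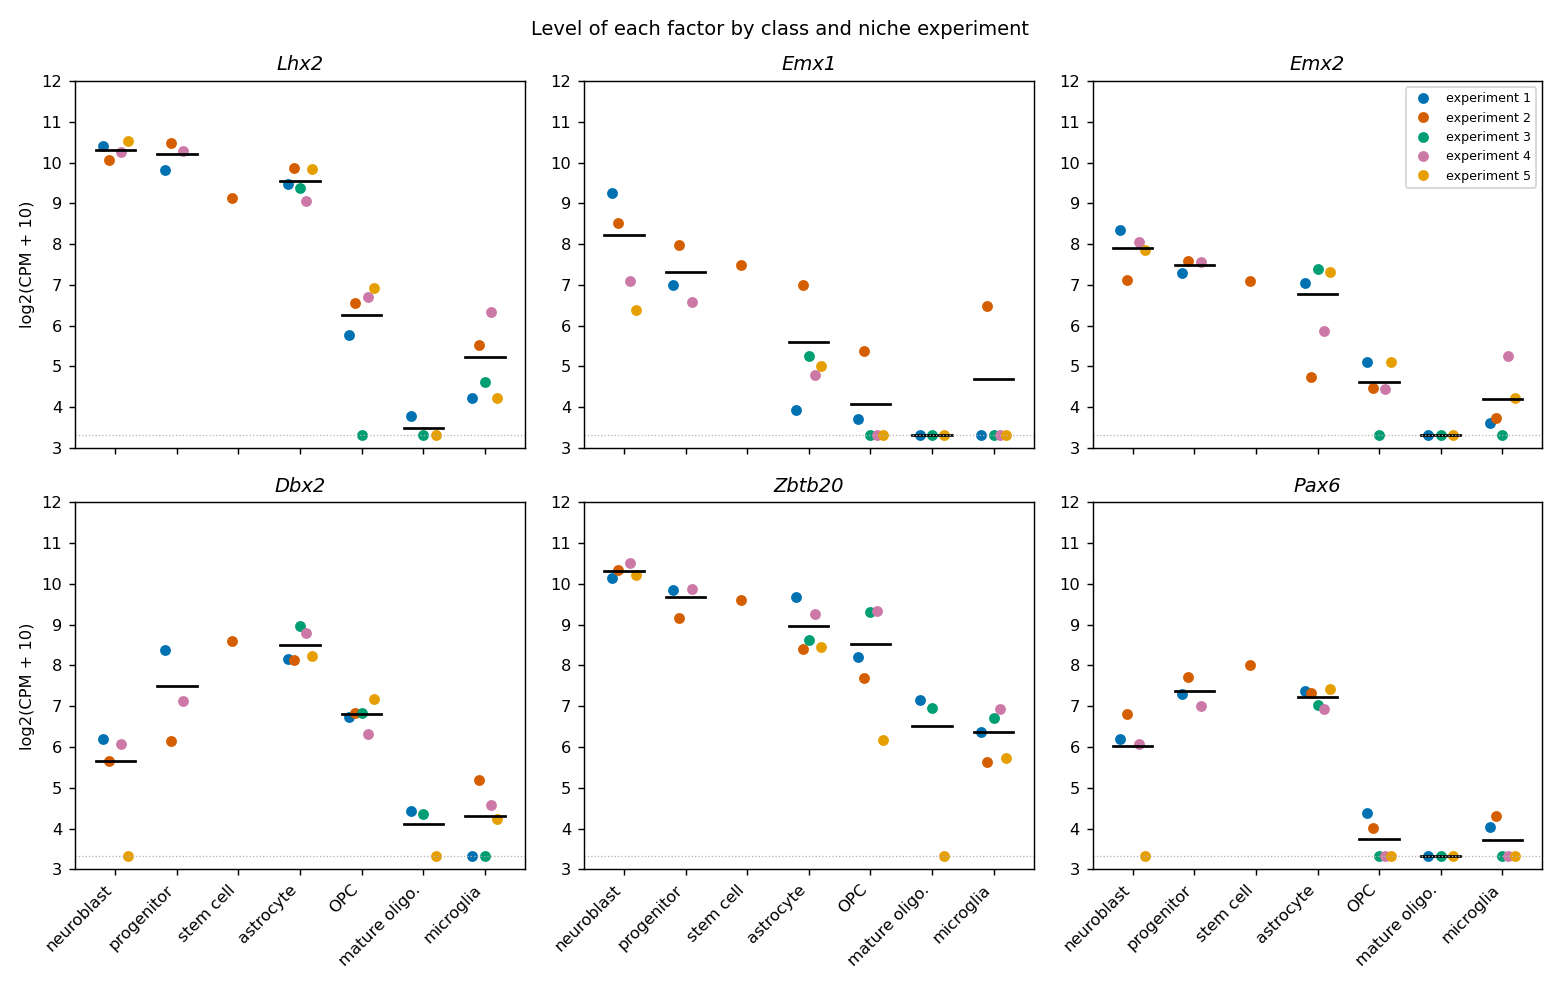
Level of each factor by cell class in the niche, as log2(CPM + 10), where each point is the sum over the cells of 1 experiment and each line the mean CPM of a class (OPC, oligodendrocyte precursor-like). Lhx2 and Zbtb20 points of neuroblast-like cells sit above those of every microglia-like sum, and Dbx2 points of astrocyte-like cells lie above those of neuroblast-like cells.

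Lhx2 was present in the neuronal lineage and in astrocyte-like cells, and every neuroblast-like value lay above every astrocyte-like value. It stood at 1349, 1052, 1206 and 1468 CPM in neuroblast-like cells of experiments 1, 2, 4 and 5, at 885, 1411 and 1228 CPM in progenitor-like cells of experiments 1, 2 and 4, and at 551 CPM in stem cell-like cells of experiment 2. In astrocyte-like cells it stood at 705, 918, 660, 520 and 911 CPM in experiments 1 to 5. These ranges lay apart from those of precursor-like cells (44.7, 83.4, 0, 93.5 and 111 CPM) and microglia-like cells (8.60, 36.2, 14.5, 70.3 and 8.69 CPM). In mature oligodendrocyte-like cells of experiments 1, 3 and 5 a single transcript was counted in experiment 1, a level of 3.89 CPM. In the order of means, neuroblast-like (1269 ± 180, SD, n = 4), progenitor-like (1175 ± 267, n = 3) and astrocyte-like cells (743 ± 171, n = 5) overlapped within 1 SD with their neighbour, the step from astrocyte-like to precursor-like cells (66.5 ± 44.4, n = 5) did not, and precursor-like and microglia-like cells (27.7 ± 26.4, n = 5) overlapped again.

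Zbtb20 was the most widespread of the 6 among the neural classes. In neuroblast-like cells it stood at 1130, 1296, 1440 and 1174 CPM, in progenitor-like cells at 915, 565 and 933 CPM, and in stem cell-like cells of experiment 2 at 771 CPM. In astrocyte-like cells it stood at 807, 329, 386, 600 and 341 CPM, in precursor-like cells at 285, 196, 625, 631 and 61.7 CPM and in microglia-like cells at 73.1, 39.5, 94.0, 112 and 43.5 CPM. The astrocyte-like and precursor-like ranges overlapped widely, and the lowest precursor-like value, of experiment 5, lay inside the microglia-like range.

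Emx1 and Emx2 were both highest in the neuronal lineage, with a wide spread. Emx2 stood at 314, 129, 254 and 220 CPM in neuroblast-like cells and at 148, 181 and 180 CPM in progenitor-like cells. In astrocyte-like cells it stood at 123, 16.9, 157, 48.9 and 148 CPM and in precursor-like cells at 24.7, 12.3, 0, 11.7 and 24.7 CPM, so that the neuroblast-like and astrocyte-like ranges overlapped. It averaged 8.45 ± 11.5 CPM in microglia-like cells (SD, n = 5). Emx1 stood at 596, 356, 128 and 73.4 CPM in neuroblast-like cells and at 118, 242 and 86.2 CPM in progenitor-like cells. In experiment 2 the stem cell-like cells held Emx2 at 127.6 CPM and Emx1 at 168.5 CPM. In astrocyte-like cells Emx1 stood at 5.34, 117.9, 28.2, 17.8 and 22.2 CPM, in precursor-like cells at 3.08, 31.87, 0, 0 and 0 CPM, and in microglia-like cells at 79.02 CPM in experiment 2 and at 0 in the other 4. Experiment 2 was thus the highest for Emx1 in all 3 of these glial classes, and a class that should lack the gene held it there. Whether free RNA contributed was not tested.

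Dbx2 ran the other way. It stood at 278, 270, 487, 431 and 289 CPM in astrocyte-like cells, at 378 CPM in stem cell-like cells of experiment 2 and at 97.1, 104, 104, 70.1 and 136 CPM in precursor-like cells. In progenitor-like cells it stood at 325, 60.5 and 129 CPM and in neuroblast-like cells at 62.8, 40.8, 57.7 and 0 CPM, below every astrocyte-like value. The value of 0 rests on 13623 transcripts, where 3 counts would be 220.2 CPM, so a level below that could not be detected. That limit lies above every precursor-like value, and in the set of transcripts used for the tests the neuroblast-like and precursor-like groups overlapped. Microglia-like cells held 26.3 CPM or less in every experiment.

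Pax6 stood at 155, 152, 121, 111 and 163 CPM in astrocyte-like cells, at 148, 202 and 118 CPM in progenitor-like cells and at 250 CPM in stem cell-like cells of experiment 2. Neuroblast-like cells held 62.8, 101, 57.7 and 0 CPM, below the astrocyte-like value of the same experiment in all 4 (in 3 of 4 in the set of transcripts used for the tests), and again the 0 came from the shallow sum of experiment 5. In precursor-like cells Pax6 reached 10.8 and 6.13 CPM in experiments 1 and 2 and was at 0 in the other 3, close to microglia-like cells (3.27 ± 4.63 CPM, SD, n = 5). It was at 0 in all 3 mature oligodendrocyte-like sums, as were Emx1 and Emx2.

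The tests set each lineage against microglia-like cells, which arise outside the neural tube, and then the neural lineages against one another. Microglia-like cells are a low reference, and the vessel classes, which were not tested, held more. Zbtb20 averaged 496 CPM in fibroblast-like (12 cells), 341 in mural-like (16 cells) and 311 in endothelial-like cells (22 cells), against 72.5 in microglia-like cells. Lhx2 averaged 147, 157 and 82.0 CPM there, against 27.7. In lymphoid-like cells Zbtb20 averaged 94.5 CPM and Lhx2 46.7 CPM. They used the set of transcripts that clustering had not used, summed per experiment and class, in edgeR's quasi-likelihood test with the experiment as a block. P-values were adjusted by Benjamini-Hochberg over all genes tested, a gene was called at an adjusted p under 0.05, and log2 fold changes were scaled by TMM. A factor that passed the filter on low counts only because 1 of the 2 classes held it had to differ, so a count of called factors among those tested is a description.

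**Figure D2:**
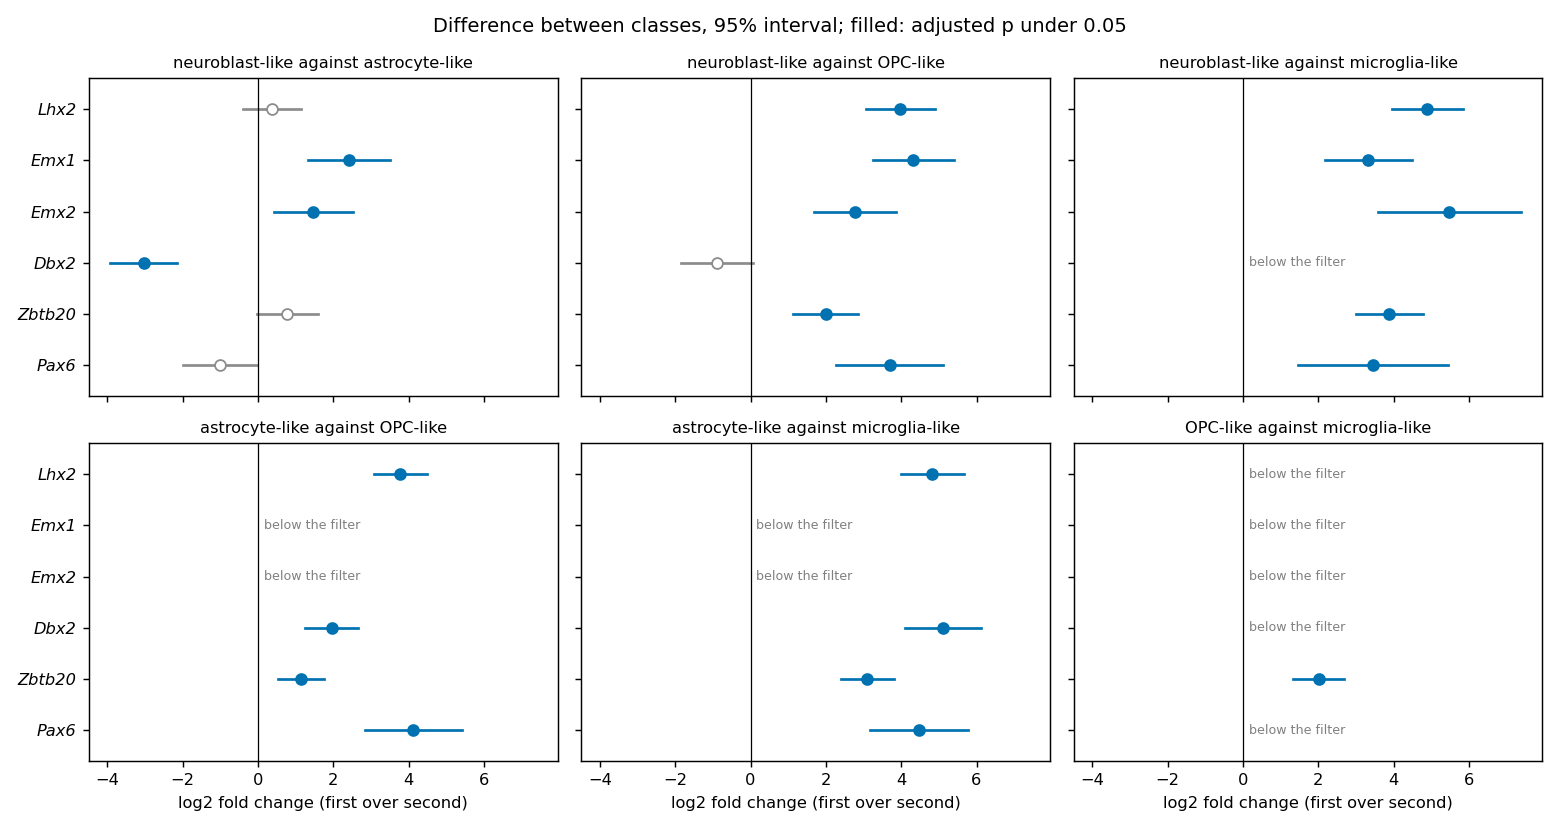
Log2 fold change of each factor in 6 comparisons of cell classes, with 95% intervals, where filled points are called at an adjusted p under 0.05. Dbx2 is the 1 factor called below 0, in neuroblast-like against astrocyte-like cells at -3.04, while Lhx2 there has an interval that spans 0.

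Against microglia-like cells, astrocyte-like cells were higher in Lhx2, Dbx2, Zbtb20 and Pax6, in 5 of 5 experiments for each. In edgeR, Dbx2 was higher by 5.11 on the log2 scale (SE 0.501, adjusted p = 2.84e-13) and Lhx2 by 4.82 (SE 0.415, adjusted p = 3.21e-15). Pax6 was higher by 4.48 (SE 0.652, edgeR adjusted p = 2.62e-08) and Zbtb20 by 3.10 (SE 0.350, edgeR adjusted p = 2.44e-11). The microglia-like sums of the tested set held 3 transcripts of Pax6 and 5 of Dbx2, so the fitted differences of these genes are imprecise. Of the 6 factors these 4 passed the filter and all 4 were called higher, where 33.8% of the 3016 genes tested were. Emx1 and Emx2 fell below the filter. With all transcripts in place of that set, Emx2 was higher by 3.91 (edgeR adjusted p = 9.07e-08) and Emx1 differed by 1.55 (edgeR adjusted p = 0.0698).

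Neuroblast-like cells were higher than microglia-like cells in Emx2, by 5.48 on the log2 scale (SE 0.972, edgeR adjusted p = 1.22e-07), and in Lhx2, by 4.90 (SE 0.480, edgeR adjusted p = 1.08e-22). Zbtb20 was higher by 3.88 (SE 0.451, edgeR adjusted p = 1.77e-16), Pax6 by 3.45 (SE 1.02, edgeR adjusted p = 0.00239) and Emx1 by 3.33 (SE 0.587, edgeR adjusted p = 1e-07). Lhx2 and Zbtb20 were higher in 4 of 4 experiments, and Emx1, Emx2 and Pax6 in 3 of 4, with overlapping groups. The microglia-like sums of the tested set held 1 transcript of Emx2 and 3 of Pax6, so these fitted differences are imprecise. Of the 6 factors, 5 passed the filter and these 5 were called higher, where 18.3% of the 3991 genes tested were. The count fell to 3 without experiment 2, where Emx1 and Pax6 did not pass the filter, and Emx1 was not called in DESeq2 (3.71). Dbx2 fell below the filter, and with all transcripts it differed by 0.80 (95% interval -0.73 to 2.33, edgeR adjusted p = 0.454).

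Precursor-like cells were higher than microglia-like cells in Zbtb20, by 2.01 on the log2 scale (SE 0.348, edgeR adjusted p = 2.7e-08) and in 5 of 5 experiments. It was the 1 factor of 6 to pass the filter, and it was called, as 64.0% of the 2636 genes tested were in either direction, 896 of them higher. With all transcripts, Dbx2 was higher by 3.03 (SE 0.562, edgeR adjusted p = 1.93e-06), in 5 of 5 experiments in the tested set, and Lhx2 by 1.25 (SE 0.493, edgeR adjusted p = 0.0257). The Lhx2 levels of the 2 classes overlapped. Vessel classes held Lhx2 above, and Zbtb20 near or above, the precursor-like means (66.5 and 360 CPM). A difference from microglia-like cells thus does not by itself set precursor-like cells apart from vessel cells. Of the vessel cells, 11 of 12 fibroblast-like and 13 of 16 mural-like cells held at least 3 markers of a class of another lineage, whose part was not tested. Emx1, Emx2 and Pax6 stayed below the filter, at means between 3.38 and 14.7 CPM in precursor-like cells.

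The 2 macroglial lineages differed. Pax6 was higher in astrocyte-like than in precursor-like cells by 4.12 on the log2 scale (SE 0.660, edgeR adjusted p = 5.06e-09) and Lhx2 by 3.78 (SE 0.361, edgeR adjusted p = 8.03e-24), each in 5 of 5 experiments. Dbx2 was higher by 1.95 (SE 0.354, edgeR adjusted p = 3e-07), also in 5 of 5. Zbtb20 was called higher by 1.13 (SE 0.312, edgeR adjusted p = 0.00129), but only 3 of 5 experiments showed that direction. It was not called without experiment 1 (0.80) or without the experiment as a block (0.87). The 4 factors that passed the filter were all called higher, where 18.9% of the 3238 genes tested were. Emx1 and Emx2 fell below it, and with all transcripts Emx2 was higher by 2.39 (SE 0.492, edgeR adjusted p = 9.61e-06).

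Between neuroblast-like and astrocyte-like cells the 6 factors split. Emx1 was higher in neuroblast-like cells by 2.41 on the log2 scale (SE 0.558, edgeR adjusted p = 9.2e-05) and Emx2 by 1.46 (SE 0.534, edgeR adjusted p = 0.0182), each in 3 of 4 experiments. Dbx2 was lower, by -3.04 (SE 0.453, edgeR adjusted p = 3.32e-10), in 4 of 4. Of the 6 factors, all of which passed the filter, 2 were called higher and 1 lower, where 16.9% of the 3255 genes tested were called higher and 24.5% lower. Without experiment 2, the one with Emx1 in microglia-like cells, the Emx1 difference was 3.38 (edgeR adjusted p = 0.000459). Emx2 lost its call without experiment 2 (1.05, edgeR adjusted p = 0.272), in DESeq2 (1.23) and under 3 further settings.

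Lhx2, Zbtb20 and Pax6 were not called in that comparison. The Lhx2 difference was 0.37 (95% interval -0.40 to 1.14, edgeR adjusted p = 0.486), that of Zbtb20 0.78 (-0.03 to 1.59, edgeR adjusted p = 0.119) and that of Pax6 -1.01 (-2.01 to -0.02, edgeR adjusted p = 0.0954). Pax6 was called lower with RLE size factors (-1.26, edgeR adjusted p = 0.0214), with all transcripts (-1.25, edgeR adjusted p = 0.00982) and with random seed 3 (edgeR adjusted p = 0.0216), and was lower in 3 of 4 experiments of the tested set, with overlapping groups. These intervals do not show equal levels, and the answer turned on scaling. TMM multiplied the library sizes by 1.25 on average in neuroblast-like cells and by 0.803 in astrocyte-like cells, a shift of 0.63 on the log2 scale. Without these factors, on plain CPM, Lhx2 was higher in neuroblast-like cells by 0.95 (edgeR adjusted p = 0.0158) and Zbtb20 by 1.33 (edgeR adjusted p = 0.00107), in 4 of 4 experiments each. The median of all genes tested then stood at 0.40, against -0.02 with TMM. Among all genes called, 40.8% were higher in neuroblast-like cells with TMM, 58.5% without scaling factors, 31.8% with RLE size factors and 28.5% in DESeq2. The call of Zbtb20 also appeared under 10 other settings, among them leaving out experiment 1, 4 or 5 (1.02 to 1.26), while leaving out experiment 2 gave 0.36. In experiment 2, 41 of the 107 neuroblast-like cells held at least 3 markers of a class of another lineage (immune or vessel), and in experiment 4 it was 27 of 63. Without such cells Zbtb20 was higher by 1.24 (edgeR adjusted p = 0.00613) and Lhx2 differed by 0.78 (edgeR adjusted p = 0.0809). Cells mixing neuroblast with astrocyte or other neural markers were not flagged, so this setting does not address them. The 6 neuroblast-like cells of experiment 5 carried choroid plexus markers at 65550 CPM, against 12.3 to 2724 CPM in the other experiments, whose part was not tested. Without that experiment Lhx2 differed by 0.53 and Dbx2 by -2.96.

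Against precursor-like cells, neuroblast-like cells were higher in Emx1 (4.32, SE 0.547, edgeR adjusted p = 2.13e-13), Lhx2 (3.98, SE 0.467, edgeR adjusted p = 2.18e-15) and Pax6 (3.69, SE 0.728, edgeR adjusted p = 6.41e-06). Emx2 was higher by 2.77 (SE 0.549, edgeR adjusted p = 7.11e-06) and Zbtb20 by 1.99 (SE 0.440, edgeR adjusted p = 7.78e-05). Lhx2 and Zbtb20 were higher in 4 of 4 experiments and the other three in 3 of 4. All 6 factors passed the filter and 5 were called higher, where 6.50% of the 6767 genes tested were. Without experiment 2 the count was 3. Dbx2 differed by -0.89 (95% interval -1.86 to 0.07, edgeR adjusted p = 0.217), and by -1.03 with all transcripts (edgeR adjusted p = 0.0491).

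Stem cell-like and astrocyte-like cells could be tested only with sums of 3 or more cells, in experiments 1, 2 and 5, where 2 of the 3 stem cell-like sums held 4 cells. Of the 6 factors 4 passed the filter and 0 were called in edgeR, where 5.80% of the 1621 genes tested were called in either direction. At an unadjusted p, Zbtb20 alone was under 0.05 (0.0119), at 0.96 on the log2 scale (95% interval 0.21 to 1.71). Lhx2 differed by -0.41 (-1.16 to 0.35), Dbx2 by 0.24 (-0.71 to 1.19) and Pax6 by 0.50 (-0.91 to 1.91).

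Shares of cells with at least 1 transcript were taken at an even depth. Cells were thinned to 2000 transcripts, and shallower cells were left out: 26 of 186 neuroblast-like, 106 of 239 astrocyte-like, 27 of 262 precursor-like and 89 of 293 microglia-like cells. Median transcripts before thinning were 8094, 2183, 5438 and 3053 in these 4 classes. Intervals and floors cover counting error only.

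**Figure D3:**
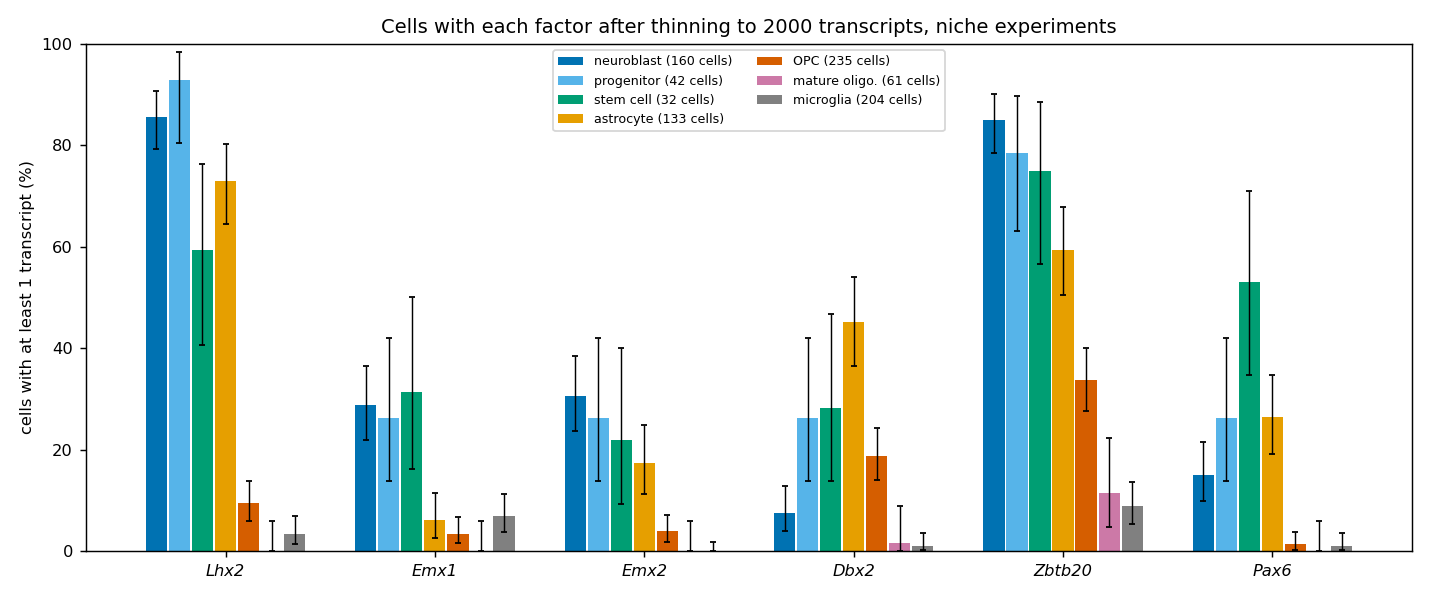
Percent of niche cells with at least 1 transcript of each factor after thinning to 2000 transcripts, by class, with exact 95% binomial intervals. Lhx2 reaches 85.6% of neuroblast-like and 72.9% of astrocyte-like cells, and 3.43% of microglia-like cells.

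Lhx2 was seen in 85.6% of neuroblast-like cells (exact 95% binomial interval 79.2 to 90.7), 92.9% of progenitor-like, 59.4% of stem cell-like and 72.9% of astrocyte-like cells (64.5 to 80.3). In precursor-like cells the share was 9.36% (5.96 to 13.8), near the 3.43% of microglia-like cells (1.39 to 6.94), and in 61 mature oligodendrocyte-like cells it was 0, with an upper bound of 5.87%. Before thinning the shares were 89.8% in neuroblast-like, 72.8% in astrocyte-like, 24.8% in precursor-like and 6.83% in microglia-like cells.

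Zbtb20 was seen in 85.0% of neuroblast-like, 59.4% of astrocyte-like, 33.6% of precursor-like and 8.82% of microglia-like cells. Dbx2 was seen in 7.50% of neuroblast-like, 45.1% of astrocyte-like, 18.7% of precursor-like and 0.98% of microglia-like cells. Pax6 was seen in 53.1% of the 32 stem cell-like cells (34.7 to 70.9), 26.3% of astrocyte-like, 15% of neuroblast-like, 1.28% of precursor-like and 0.98% of microglia-like cells. Emx2 was seen in 30.6% of neuroblast-like, 17.3% of astrocyte-like and 3.83% of precursor-like cells, and in 0 of 204 microglia-like cells, an upper bound of 1.79%. Emx1 was seen in 28.8% of neuroblast-like cells, but its 6.02% in astrocyte-like and 3.40% in precursor-like cells lay below the 6.86% of microglia-like cells. All 24 Emx1 transcripts of microglia-like cells came from experiment 2, so these pooled shares do not place the other experiments.

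Single cells held several factors at once in the neuronal and astrocytic classes. Lhx2 and Zbtb20 were seen together in 76.9% of neuroblast-like, 45.1% of astrocyte-like, 3.40% of precursor-like and 1.47% of microglia-like cells. Whether they met in a cell more often than their single shares give was not tested. At least 3 of the 6 were seen in 57.1% of 42 progenitor-like and 56.25% of 32 stem cell-like cells. The share was 51.9% in neuroblast-like, 38.4% in astrocyte-like, 1.28% in precursor-like and 0.49% in microglia-like cells. None of the 6 was seen in 3.75% of neuroblast-like, 3.01% of astrocyte-like, 46.0% of precursor-like and 80.9% of microglia-like cells.

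The unnamed cluster led by Reln, which encodes the secreted protein reelin, also held the factors. Its 37 cells of experiment 3 had Lhx2 at 549 CPM (exact 95% Poisson interval 462 to 648), Zbtb20 at 887 (775 to 1010) and Emx2 at 145 (102 to 200). Emx1 stood at 78.5 CPM, Pax6 at 54.9 and Dbx2 at 51.0, so that Dbx2 lay below the range of astrocyte-like cells and inside that of neuroblast-like cells.

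In the Nestin-GFP library, which is 1 library with no test, the factors were set beside the niche experiments. Its 40 neuroblast-like cells held Lhx2 at 508 CPM (exact 95% Poisson interval 427 to 600), against 1052 to 1468 CPM in the niche experiments, and Emx2 at 98.6 (65.0 to 144), against 129 to 314 CPM. Zbtb20 stood at 1783 CPM (1628 to 1948), above the 1130 to 1440 CPM of the niche. Emx1 at 102, Pax6 at 51.1 and Dbx2 at 18.3 CPM fell within the niche ranges. Its 93 astrocyte-like cells held Lhx2 at 493 CPM (432 to 561), against 520 to 918 CPM in the niche, and Dbx2 at 285, Zbtb20 at 594, Pax6 at 122, Emx2 at 81.5 and Emx1 at 10.7 CPM, within the niche ranges. Its 71 precursor-like cells held Zbtb20 at 242, Dbx2 at 90.9, Lhx2 at 51.7 and the other three at 10.3 CPM or less. The neuroblast-like cells of this library carried mature oligodendrocyte markers at 2546 CPM, with 0 of 12 markers at 0, against 137 to 440 CPM in the niche. Its astrocyte-like cells carried them at 3179 CPM, also with 0 of 12 at 0, against 298 to 1119 CPM in the niche, and its precursor-like cells at 3042 CPM, against 208 to 2458 CPM. Mature neuron markers stood at 807 CPM in its neuroblast-like cells, against 294 to 880 CPM. The part of any of these in these levels was not tested, and library and mouse line cannot be told apart.

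In the old library, also without a test, 12 neuroblast-like cells held Lhx2 at 1530 CPM (exact 95% Poisson interval 1285 to 1807), against 1052 to 1468 CPM in the niche experiments. Zbtb20 stood at 1485 CPM (1245 to 1759), against 1130 to 1440 CPM, and both intervals reached into the niche ranges. Emx2 at 222, Emx1 at 211, Dbx2 at 22.2 and Pax6 at 22.2 CPM lay within them. Its 21 precursor-like cells held Zbtb20 at 222, Dbx2 at 74.0, Lhx2 at 28.5 and Pax6 at 22.8 CPM, the last from 4 transcripts. The 7 astrocyte-like cells held 13534 transcripts in all, 8 of them Lhx2 (591 CPM, 255 to 1165) and at most 1 of any other factor, too few to set against the niche.

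**Figure D4:**
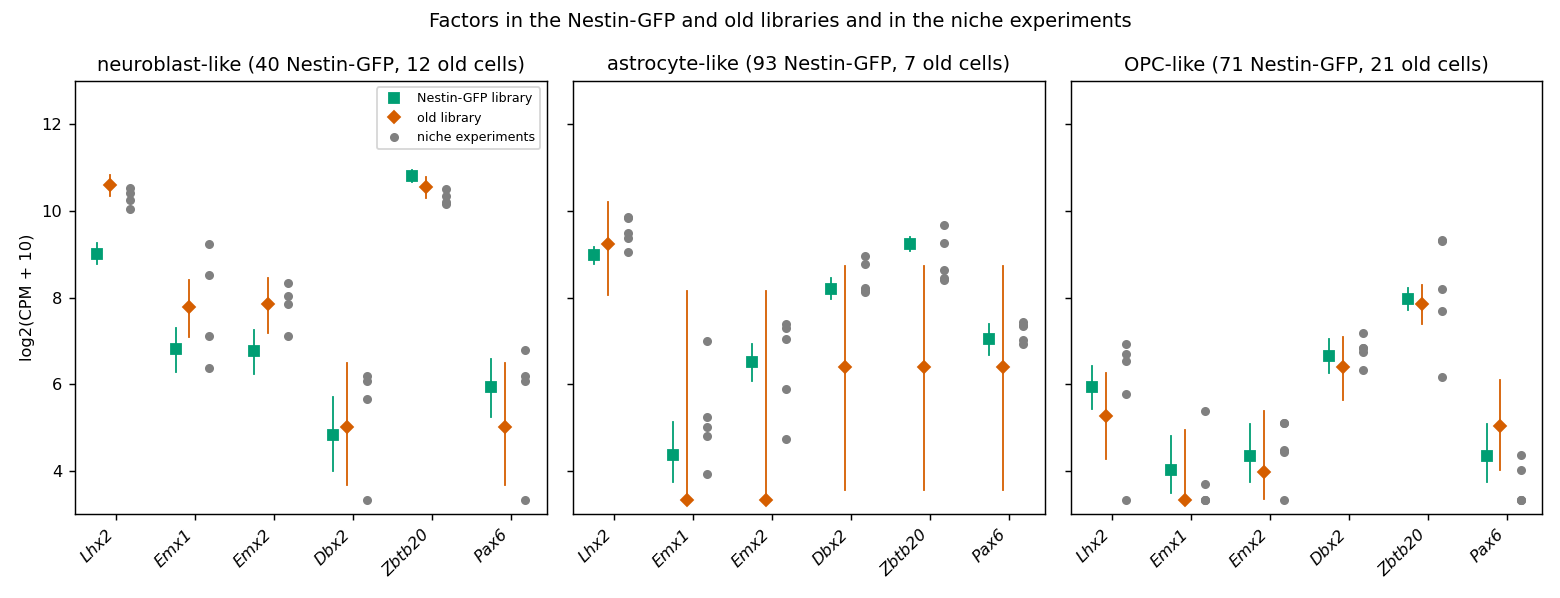
Levels of the 6 factors in the Nestin-GFP and old libraries, with exact 95% Poisson intervals, beside the niche experiments, as log2(CPM + 10). Zbtb20 of Nestin-GFP neuroblast-like cells (1783 CPM) lies above the niche points and Lhx2 (508 CPM) below them.

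Other regional factors of the forebrain were counted from lists. Among 15 further factors of the dorsal forebrain, 8 were tested in astrocyte-like against microglia-like cells. All 8, among them Rfx4 (7.19 on the log2 scale), Gli3 (6.71) and Fezf2 (4.66), were called higher, where 33.8% of all genes tested were. The microglia-like sums held 3 transcripts of Rfx4 and 1 of Gli3, so these fitted differences are imprecise, and a gene that passed the filter only through the class where it is high had to differ. In neuroblast-like against microglia-like cells 5 of 6 tested, among them Nr2f1 (4.22) and Fezf2 (3.37), were higher, where 18.3% of all genes were. In precursor-like against microglia-like cells 3 of 3, among them Nr2f1 (2.38) and Lmo4 (1.42), were higher, where 64.0% of all genes were called in either direction. Between neuroblast-like and astrocyte-like cells 0 of 9 were higher and 5 lower, led by Rfx4 (-4.03), Nr2e1 (-3.31), a stem cell receptor gene, and Gli3 (-3.04). Of all genes tested there, 16.9% were called higher and 24.5% lower. Astrocyte-like cells were higher than precursor-like cells in 7 of 8, led by Gli3 (6.93, with 1 transcript in precursor-like cells), where 18.9% of all genes were. Neuroblast-like cells were higher than precursor-like cells in 4 of 6, led by Fezf2 (3.17), where 6.50% of all genes were. In stem cell-like against astrocyte-like cells 1 of 6 was called, Lmo4, which was lower (-7.69), where 5.80% of all genes were called in either direction. Stem cell-like cells held 2 transcripts of Lmo4 in all. This fitted difference, like that of Gli3 against precursor-like cells, is therefore imprecise.

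Factors of other territories were scarce. Of 15 listed factors of the ventral forebrain, 12 had a row. Their summed level was 138 CPM in neuroblast-like, 107 in astrocyte-like, 87.8 in precursor-like and 8.23 in microglia-like cells, against 2701, 2147, 973 and 181 CPM for the dorsal list. Of the 2 ventral factors tested in neuroblast-like against precursor-like cells, 1 was called higher and the other, Gsx1, lower (-3.48). Of all 6767 genes tested there, 440 were called higher and 950 lower. Of 20 listed factors of the diencephalon, midbrain and hindbrain 12 had a row and 0 passed the filter in any comparison. They summed to 12.6 CPM in neuroblast-like, 2.19 in astrocyte-like, 43.9 in precursor-like and 0.91 in microglia-like cells.

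Of 15 paralogs and binding partners 14 had a row and 4 were tested in astrocyte-like against microglia-like cells, of which Lmo2, a LIM-only protein, was lower (-5.57). In neuroblast-like against microglia-like cells Ssbp3 was higher (2.71) and Lmo2 lower (-5.83), of 4 tested. In precursor-like against microglia-like cells Lmo2 (-5.60) and Ldb1 (-1.06), the LIM-domain-binding cofactor, were lower, of 3 tested. Called lower among all genes in these 3 comparisons were 927 of 3016, 966 of 3991 and 791 of 2636, in that order. Ssbp3 was higher in neuroblast-like than in astrocyte-like cells (1.63, of 3 tested), where 16.9% of all genes were. It was also higher in neuroblast-like than in precursor-like cells (1.86, of 5 tested), where 6.50% of all genes were. In astrocyte-like against precursor-like cells 0 of 2 were called, nor was the 1 tested in stem cell-like against astrocyte-like cells.

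The pattern of each factor was also set beside that of 639 other genes over 35 sums of a class in an experiment, as Pearson's r of log2(CPM + 10). The 639 genes are those that passed the filter on low counts with all 35 sums as 1 group. Genes counted in few sums were thus left out of the ranking. The sums share libraries and differ in depth, so r is a description. Lhx2 (r = 0.845) and Emx2 (r = 0.793) were most like Nfib, which encodes a nuclear factor I protein, Emx1 most like Tubb5 (0.728), a tubulin gene, and Zbtb20 most like Nedd4 (0.781), a ubiquitin ligase gene. Dbx2 was most like Slc1a2 (0.837) and Pax6 most like Slc1a3 (0.707), the genes of 2 astrocytic glutamate transporters. Among the 6 factors, Lhx2 and Emx2 were most alike (r = 0.881) and Emx1 and Dbx2 least (r = 0.37).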

How the data were processed

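Per the labels, hippocampal cells were sorted into 384-well plates and made into SORT-seq libraries. The submitters' processing notes name BWA 0.6.2-r126 and the mm10 genome, the assembly also called GRCm38. Which gene annotation and counting program were used is not stated. The deposited tables give estimated counts per gene and well, corrected by the authors for UMI saturation. They were rounded to whole numbers and used as counts. Undoing the usual saturation formula, as a check of the unit, gave whole numbers for 99.3% or more of the values above 0 in each library (tolerance 0.05).

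Cells with at least 1000 transcripts were kept. Each UMI was put at random into 1 of 2 sets. The first, without the 6 factors, was clustered (scanpy 1.11.5; 2000 variable genes, 30 components, 15 neighbours, Leiden resolution 1) and named from marker lists. The thresholds for naming (a score of at least 1 and at least 3 markers detected) were set after marker scores had been seen. No doublet caller was run. In an alternative, cells with at least 3 markers of a class of another lineage (neural, immune and blood, or vessel) were left out. Mixes of classes within a lineage were not flagged. The second set was summed per experiment and class, for sums of at least 5 cells, and tested with edgeR 4.0.16 (filterByExpr, TMM, quasi-likelihood test, Benjamini-Hochberg), a procedure also tested on simulated data. Classes of an experiment come from shared sorts and libraries, so the experiment number paired the sums and entered as a block. CPM levels use all transcripts. DESeq2 1.42.0 was an alternative.

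The 6 factors and all lists were chosen with earlier results of these data known. Named genes are the 6 factors, the 3 genes most correlated with each, and at most 3 called genes per list and comparison by size of change. All columns of the count files were mapped to a sample (0 left over). Some called genes of the lists are not reported here.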

Additional observations from a re-analysis of the deposited data

Results flagged for a closer look

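Each factor was checked in each class with 4 or more experiments, 30 groups in all, for an experiment that stood apart from the others by Dixon's criterion. Chance meets it in about 1 of 20 groups of normally distributed values, which counts near 0 are not. A group with only 1 experiment above 0 always meets it, as for Emx1 in microglia-like and Emx2 in lymphoid-like cells. In 3 glial and immune classes, experiment 2 stood above the others for Emx1. It held 117.9 CPM in astrocyte-like cells, 31.87 CPM in oligodendrocyte precursor-like cells and 79.02 CPM in microglia-like cells. Emx2 in lymphoid-like cells stood apart in experiment 4, at 11.35 CPM, which is 2 transcripts, with 0 in the other experiments.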

How the results depend on the processing

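No log2 fold change of the 6 factors changed sign among 522 values of 26 results; 496 stayed on their side of the threshold, 17 newly passed it and 9 no longer did. Of 330 mean levels 324 moved by less than 1 SD between experiments. Counts of genes called moved more, and what caused this was not tested beyond the numbers of genes passing the filter.

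Without the experiment as a block, genes called were 1043 in astrocyte-like, 1130 in neuroblast-like and 748 in precursor-like against microglia-like cells, and 590 in astrocyte-like against precursor-like cells, where the blocked fit called 1947, 1696, 1687 and 1106. The filter then passed fewer genes, for example 1639 in place of 3016 for astrocyte-like against microglia-like cells. The factors called without the block were 2 in neuroblast-like and 0 in precursor-like against microglia-like cells, and 2 each in astrocyte-like and neuroblast-like against precursor-like cells.

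With all transcripts, genes called were 3114 in astrocyte-like, 2725 in neuroblast-like and 2932 in precursor-like against microglia-like cells, 1910 in astrocyte-like against precursor-like cells, and 2215 and 2240 in neuroblast-like against astrocyte-like and precursor-like cells, which had 1348 and 1390 with the tested set. Factors called were then 3 in precursor-like against microglia-like and 5 in neuroblast-like against astrocyte-like cells. They were also 5 there with random seed 3 and without scaling factors. With no filter 2993 genes were called in astrocyte-like and 3254 in precursor-like against microglia-like cells. The precursor-like count was 2953 with sums of at least 10 cells, 3070 with cells of at least 500 transcripts and 2677 in 1 fit over all classes. Called factors there were 2 with no filter, with sums of at least 10 cells, with at least 500 transcripts and with seeds 2 and 3, and 3 in the joint fit. Without cells holding markers of another lineage the gene counts were 1084 in astrocyte-like, 723 in neuroblast-like and 869 in precursor-like against microglia-like cells, and 895 in neuroblast-like against precursor-like cells.

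Leaving out 1 experiment at a time, genes called ranged from 661 (without experiment 2) to 2010 in neuroblast-like and from 1013 (without experiment 1; 1081 without experiment 2) to 2354 in precursor-like against microglia-like cells. They ranged from 791 (without experiment 4; 845 without experiment 2) to 1505 in neuroblast-like against astrocyte-like cells and from 347 (without experiment 2; 885 without experiment 4) to 1634 in neuroblast-like against precursor-like cells. Factors called ranged from 3 to 5 in neuroblast-like against microglia-like and against precursor-like cells. They ranged from 1 to 2 in precursor-like against microglia-like cells, where leaving out experiment 3, 4 or 5 each gave 2.

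Stem cell-like against astrocyte-like cells had 94 genes called, 59 with cells of at least 2000 transcripts and 13 in the joint fit, and 1 factor called at resolution 0.6. The other alternatives planned for it, and sums of at least 10 cells for neuroblast-like against precursor-like cells, gave no value.

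Without scaling factors the median of all genes was 0.58 in neuroblast-like and 0.61 in precursor-like against microglia-like cells and -0.45 in astrocyte-like against precursor-like cells. The share of called genes that were higher was then 62.3%, 66.6% and 32.2%, against 43.0%, 53.1% and 55.3% with TMM, and it was 30.9% in DESeq2 for neuroblast-like against microglia-like cells. Sums of few cells limit what could be detected.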
